A study of Mus musculus with 10 samples.

Results

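The genes described here are Acsl1, Cpt1a, Slc25a20 and Cpt2, which carry a long-chain fatty acid from its free form into the mitochondrial matrix. They were chosen by name, by their place in the pathway, and make up 4 of the 3480 genes in the table of this muscle RNA-sequencing experiment. The tibialis anterior, a shin muscle of mainly fast fibers, was compared between 5 FoxP1iSkmTg mice (genotype FoxP1flSTOPx HSA-MerCreMer) and 5 Control mice (genotype FoxP1flSTOP). Mice of both groups carried a Foxp1 transgene silenced by a floxed stop cassette, were females of 13 to 18 weeks, and received tamoxifen at 80 mg/kg on 4 days. FoxP1iSkmTg mice also carried MerCreMer, a Cre recombinase that tamoxifen activates, under the human skeletal α-actin promoter, which is active in muscle fibers. Muscles of both groups were taken 3 days after the last injection, in the first hours of the light phase. No group carried MerCreMer without the Foxp1 transgene, so a response to Foxp1 and a response to activated Cre cannot be told apart.

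Long-chain fatty acids enter the matrix in steps. Acsl1, the main long-chain acyl-CoA synthetase of muscle, heart and fat, couples the fatty acid to coenzyme A. A carnitine palmitoyltransferase 1 of the outer mitochondrial membrane then moves the acyl group onto carnitine, a step that malonyl-CoA inhibits. Cpt1a encodes the isoform best known from liver, and the muscle isoform gene Cpt1b was not analysed here. Slc25a20 encodes the carnitine-acylcarnitine translocase of the inner membrane, and Cpt2, on the matrix face of that membrane, hands the acyl group back to coenzyme A for beta-oxidation.

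The sequences just before the start sites of these genes are shown so that forkhead and ETS letters, motif families that the study found in FOXP1-bound regions of muscle, and GC boxes can be read in them directly. They are RefSeq promoters of GRCm38.p6 (mm10), in which all 4 genes were found, with 2 start sites for Acsl1. Each is the 250 bases before the start, 5′ to 3′ in the direction of transcription. The Slc25a20 window was ended after 202 bases, where a GENCODE M21 exon begins. The windows of Cpt1a and Cpt2 end with 16 and 21 bases that GENCODE M21, whose starts differ from those of RefSeq, places in an exon, and for Cpt1a it has a further start before this window, at 3322334. Capitals mark the letters TGTTT (the core of the forkhead motif), CCGGAAGT (an ETS motif) and GGGCGG (a GC box) on either strand.
Acsl1 first start, chr8:46470787-46471036, plus strand: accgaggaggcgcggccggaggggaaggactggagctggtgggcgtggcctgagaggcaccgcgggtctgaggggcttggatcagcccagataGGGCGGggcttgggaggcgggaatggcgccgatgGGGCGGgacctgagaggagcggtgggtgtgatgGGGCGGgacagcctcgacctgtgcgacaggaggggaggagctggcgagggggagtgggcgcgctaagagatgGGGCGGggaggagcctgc
Acsl1 second start, chr8:46490716-46490965, plus strand: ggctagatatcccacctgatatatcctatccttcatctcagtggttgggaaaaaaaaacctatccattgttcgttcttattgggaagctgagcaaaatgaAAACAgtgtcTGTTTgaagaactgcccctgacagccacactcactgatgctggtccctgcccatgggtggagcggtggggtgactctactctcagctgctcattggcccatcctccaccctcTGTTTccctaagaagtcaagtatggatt
Cpt1a, chr19:3323051-3323300, plus strand: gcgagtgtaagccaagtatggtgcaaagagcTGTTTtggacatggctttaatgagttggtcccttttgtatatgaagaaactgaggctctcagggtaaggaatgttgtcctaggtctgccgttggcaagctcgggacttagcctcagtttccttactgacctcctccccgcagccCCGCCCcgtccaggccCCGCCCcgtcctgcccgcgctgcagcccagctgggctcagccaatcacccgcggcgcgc
Cpt2, chr4:107923590-107923839, minus strand: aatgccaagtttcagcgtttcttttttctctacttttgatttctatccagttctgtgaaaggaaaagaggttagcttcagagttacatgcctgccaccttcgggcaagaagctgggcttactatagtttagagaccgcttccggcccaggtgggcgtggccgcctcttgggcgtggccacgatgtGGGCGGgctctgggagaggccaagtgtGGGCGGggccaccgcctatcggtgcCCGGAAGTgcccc
Slc25a20, chr9:108661886-108662087, plus strand: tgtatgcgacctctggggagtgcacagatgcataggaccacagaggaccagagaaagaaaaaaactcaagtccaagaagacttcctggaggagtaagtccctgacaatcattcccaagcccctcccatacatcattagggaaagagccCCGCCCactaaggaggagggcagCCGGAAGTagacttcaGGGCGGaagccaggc

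The ETS letters CCGGAAGT stood in the windows of Cpt2, 13 bases before the start, and of Slc25a20, 79 bases before it, counted to the first base of the match. Of all 32851 RefSeq promoter windows of 250 bases before a start, 2.88% hold these letters on either strand. The windows of both genes, of Cpt1a and of the first Acsl1 start also held GC boxes, 2 in Cpt1a, 2 in Cpt2, 3 in Slc25a20, the last of them beyond the printed bases, and 4 in Acsl1. This motif was found in 32.7% of all windows. The forkhead core TGTTT was read 3 times before the second Acsl1 start and once before Cpt1a, against 46.4% of all windows with at least 1 match. The longer forkhead letters TGTTTAC, present in 3.17% of all windows, were matched in none of these 5 windows. The same was true of the E-box CACGTG (6.02% of windows), the NRF1 core GCGCATGC (2.26%) and TATAAA (12.4%). The nuclear receptor half-site AGGTCA (14% of windows) was read once, on the reverse strand of the Cpt1a window at 94 bases before the start. CCAAT (33.8% of windows) was read once before Cpt1a and 2 times before the second Acsl1 start. TGTTT is part of TGTTTAC, and no matches in these windows shared a base. The first Acsl1 window held 72% G and C and the second 48.4%, against a median of 52.4% over all windows. These are matches of letters only, and binding was not measured in these muscles.

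Foxp1, the gene carried by the transgene, was first read in every mouse as a check of the labels. FoxP1iSkmTg mice, replicates 1 to 5, gave 5352.2, 2163.3, 5813.1, 1422.8 and 1288.9 normalized counts (read counts divided by the size factor of the library). Control replicates lay between 231.7 and 389.9 normalized counts. The groups were far apart, by a log2 fold change of 3.39 ± 0.44 (SE), and the edgeR quasi-likelihood test gave an adjusted p of 0.000631. FoxP1iSkmTg replicates 1 and 3 had the highest Foxp1 levels, well above the other 3.

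Acsl1, Slc25a20 and Cpt2 rose in FoxP1iSkmTg muscle, by 1.66-fold, 1.41-fold and 1.30-fold. For these genes every FoxP1iSkmTg mouse lay above every Control mouse. Cpt1a, which was far lower in level, had a fold change of 1.41 that did not pass the test, and its Control mice differed strongly among themselves. At an adjusted p under 0.05, 3 of the 4 genes were therefore called higher. Over the whole series 17.5% of the 3115 genes tested were called higher and 19.8% lower, and of the 15846 genes over which p was adjusted, 3.43% were higher and 3.89% lower. Among the genes tested, 19.9% had every FoxP1iSkmTg mouse above every Control mouse. The table holds genes that the authors' own test of these mice gave an unadjusted p below 0.05, so being listed already reflects this contrast, and the study itself named Cpt2 from these mice, as it did Hadha, Fabp3, Plin2 and Prkaa2 described further on. The calls below are not independent of that selection.

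**Figure D1:**
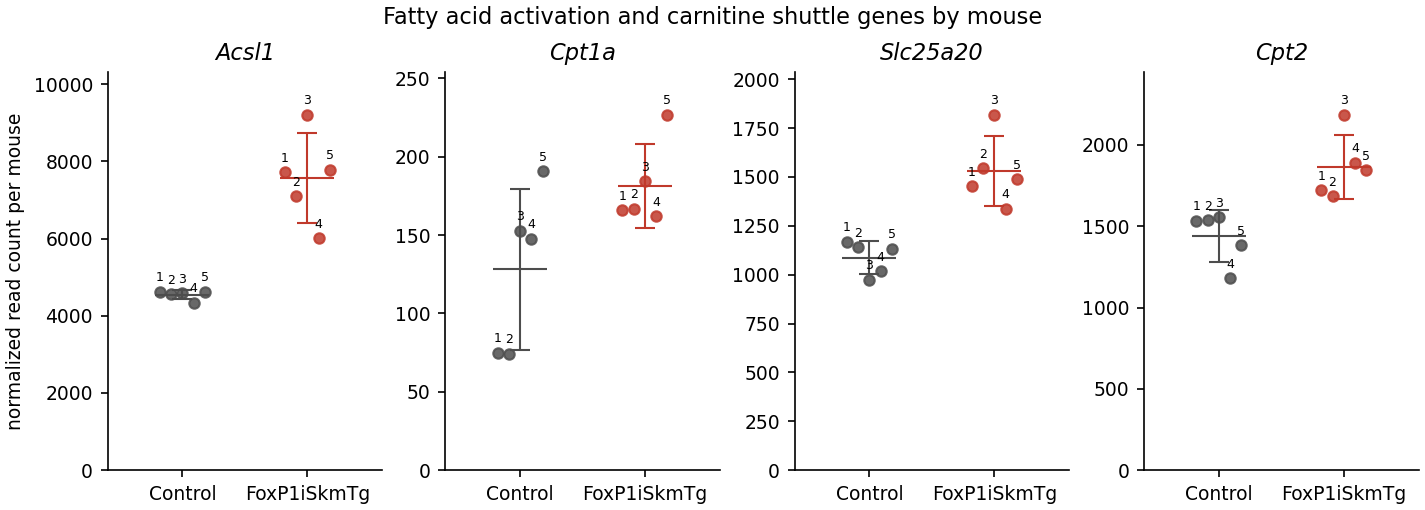
Normalized read count (vertical axis, from 0) of Acsl1, Cpt1a, Slc25a20 and Cpt2 in each Control (grey) and FoxP1iSkmTg (red) mouse, with the replicate number beside each point and the group mean ± SD as a line with bars, n = 5 each. The groups are apart for Acsl1, Slc25a20 and Cpt2, whereas the Cpt1a groups overlap and Control replicates 1 and 2 stand near 75 normalized counts.

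The activating enzyme gene Acsl1 (ENSMUSG00000018796, chromosome 8, 46471037 to 46536051, plus strand, GRCm38) showed the largest rise of the 4. In FoxP1iSkmTg replicates 1 to 5 it measured 7723.5, 7102.7, 9206.4, 6006.2 and 7788.6 normalized counts. In Control replicates 1 to 5 it measured 4625.2, 4560.2, 4589.5, 4338.6 and 4623.7. The Control mice lay within a narrow band and the FoxP1iSkmTg mice were widely spread above it, highest in replicate 3 and lowest in replicate 4. With group means of 4547.4 ± 119.8 and 7565.5 ± 1163.3 normalized counts (SD, n = 5 each), Acsl1 rose by a log2 fold change of 0.73 ± 0.09 (SE, 95% interval 0.53 to 0.94, adjusted p = 0.000556, edgeR). The gene body overlaps the antisense gene model Gm45244, and no source used here says if counting was by strand.

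Cpt1a (ENSMUSG00000024900, chromosome 19, 3323301 to 3385732, plus strand), the liver-type gene of the outer-membrane transferase step, was the rarest of the 4 transcripts. FoxP1iSkmTg replicates 1 to 5 gave 165.8, 166.8, 184.4, 161.9 and 226.7 normalized counts. Control replicates 1 to 5 gave 74.9, 74.2, 152.8, 147.7 and 190.7. Control replicates 1 and 2 were thus far below all other mice, while Control replicate 5 exceeded 4 of the 5 FoxP1iSkmTg mice. Mean levels were 128.1 ± 51.6 in Control and 181.1 ± 26.9 normalized counts in FoxP1iSkmTg muscle. The log2 fold change of Cpt1a was 0.50 ± 0.24 (SE), with a 95% interval from -0.03 to 1.03 and an adjusted p of 0.32 (unadjusted 0.0623), by edgeR. A change as large as that of Acsl1 lies within this interval, as does no change. Raw counts of Cpt1a ran from 65 to 225 reads per mouse.

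Slc25a20 (ENSMUSG00000032602, chromosome 9, 108662088 to 108684641, plus strand), the inner-membrane translocase gene, was measured at 1453.0, 1544.2, 1817.2, 1336.6 and 1489.4 normalized counts in FoxP1iSkmTg replicates 1 to 5. The Control values were 1167.6, 1140.3, 973.7, 1017.6 and 1133.1. FoxP1iSkmTg replicate 3 was again the highest and replicate 4 the lowest of its group, and the groups did not overlap. From means of 1086.5 ± 85.3 and 1528.1 ± 178.6 normalized counts (SD, n = 5 each), the log2 fold change was 0.49 ± 0.09 (SE, adjusted p = 0.00488, edgeR).

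Cpt2 (ENSMUSG00000028607, chromosome 4, 107903981 to 107923610, minus strand), the matrix-side transferase gene, had the smallest change of the 4. Its normalized counts in FoxP1iSkmTg replicates 1 to 5 were 1723.2, 1683.2, 2184.9, 1890.1 and 1844.1. Those of Control replicates 1 to 5 were 1533.1, 1538.7, 1555.5, 1179.6 and 1385.0. Replicate 3 was once more the highest FoxP1iSkmTg mouse, and the gap between the groups was narrow, with Control replicate 3 just below FoxP1iSkmTg replicate 2. The mean rose from 1438.4 ± 160.1 to 1865.1 ± 197.9 normalized counts, a log2 fold change of 0.37 ± 0.09 (SE, adjusted p = 0.0293, edgeR). This call depended on single mice. Without Control replicate 4, Control replicate 5 or FoxP1iSkmTg replicate 3 the adjusted p was 0.0587, 0.0681 and 0.0616.

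The order of the FoxP1iSkmTg mice was compared with their Foxp1 level as a description only, since 5 mice are too few for a correlation. Replicate 3, with the highest Foxp1 level, was also the highest for Acsl1, Slc25a20 and Cpt2. Replicate 1, whose Foxp1 level was nearly as high, was at rank 3 of 5 for Acsl1 and at rank 4 for Cpt1a, Slc25a20 and Cpt2. Replicate 5 had the lowest Foxp1 level and the highest Cpt1a level, and was at rank 2 for Acsl1. Relative to the Control mean, Foxp1 stood at 4.16 and 4.28 on the log2 scale in replicates 1 and 3 and at 2.11 to 2.85 in the other mice, and none of the 4 genes kept that order.

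Levels of different genes were compared as FPKM, that is, fragments scaled to gene length and library total. With the gene lengths of the deposited table, Cpt2 had the highest Control level at 34.0 ± 3.77 FPKM (SD, n = 5), followed by Acsl1 at 24.5 ± 0.632, Slc25a20 at 12.7 ± 0.991 and Cpt1a at 1.69 ± 0.679. In Control mice no ranges of neighbouring genes in this order overlapped. In FoxP1iSkmTg muscle Cpt2 (44.1 ± 4.65 FPKM) and Acsl1 (40.8 ± 6.27) lay within each other's spread, and Slc25a20 (17.8 ± 2.08) and Cpt1a (2.38 ± 0.355) followed. The deposited lengths of Acsl1 and Slc25a20, 10483 and 4844 bases, are far longer than their principal GENCODE M21 transcripts, of 3897 and 1783 bases. For Cpt2 and Cpt1a the 2 lengths are nearly equal, 2391 against 2372 and 4300 against 4317 bases. With the principal lengths, a choice made after seeing the data, Acsl1 came first in Control mice at 66.0 ± 1.70 FPKM. Slc25a20 (34.5 ± 2.69) and Cpt2 (34.3 ± 3.80) could then not be ordered. In FoxP1iSkmTg mice the levels were 109.7 ± 16.9, 48.4 ± 5.64 and 44.4 ± 4.68 FPKM, in the same order. The place of Acsl1 and Slc25a20 among the 4 therefore depends on the length used, whereas Cpt1a was the lowest with either. Fold changes between groups do not depend on it.

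**Figure D2:**
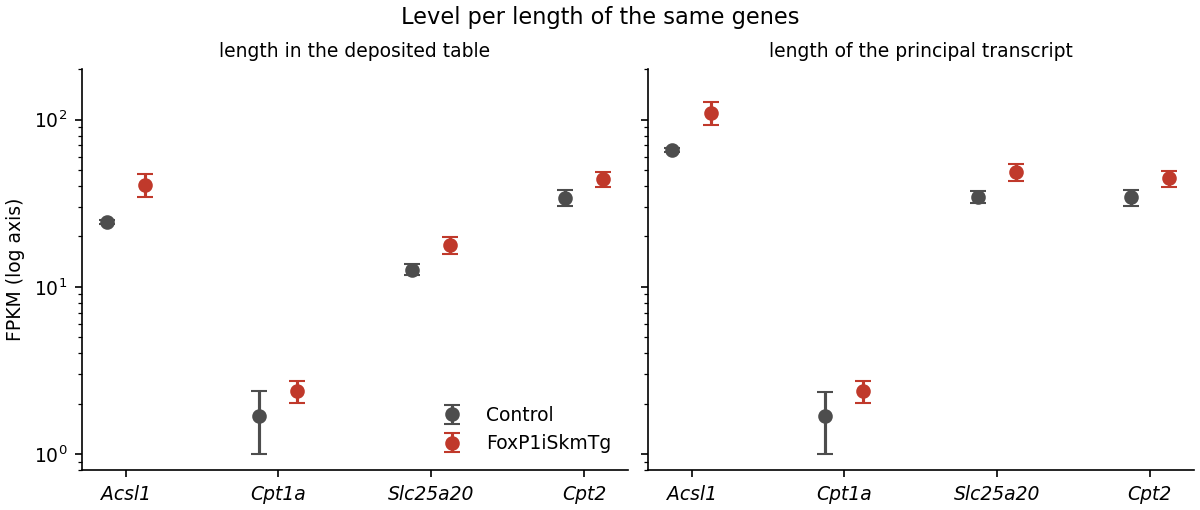
Mean FPKM ± SD (log axis, n = 5 mice per group) of the 4 genes with the gene length of the deposited table (left) and with the length of the principal GENCODE M21 transcript (right), Control in grey and FoxP1iSkmTg in red. Acsl1 moves from 24.5 to 66.0 FPKM in Control mice between the panels and overtakes Cpt2, while Cpt1a stays near 2 FPKM in both.

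Whether the 4 genes changed by different amounts was asked with the count ratio of one gene to another within each mouse, which does not depend on how libraries were scaled. These ratios are not corrected for length, so only their difference between groups is given. Reads of Acsl1 per read of Cpt2 went from 3.19 ± 0.316 in Control to 4.06 ± 0.508 in FoxP1iSkmTg mice (SD, n = 5 each), a ratio 1.27-fold higher. FoxP1iSkmTg replicate 4, at 3.18, lay within the Control range of 2.95 to 3.68, and the other 4 mice of its group lay above it. Reads of Acsl1 per read of Slc25a20 went from 4.20 ± 0.308 to 4.94 ± 0.373, a ratio 1.18-fold higher, and the ranges of 3.96 to 4.71 and 4.49 to 5.32 overlapped. By an exact two-sided permutation test over the 252 splits of the 10 mice, both gave p = 0.0238, which became 0.0714 after adjustment over the 6 pairs. The smallest p this design allows is 0.00794. The log2 ratio of Cpt2 to Slc25a20 differed by -0.11 between groups (exact p = 0.302, adjusted 0.603).

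Ratios with Cpt1a carried the split among its Control mice. Acsl1 reads per Cpt1a read ranged from 24.3 to 61.7 in Control mice and from 34.4 to 49.9 in FoxP1iSkmTg mice. The 3 pairs with Cpt1a differed by 0.11 to 0.22 on the log2 scale, with exact permutation p-values of 0.508 to 0.706. None of the 6 pairs passed after adjustment, so a difference in the size of change between any of these genes was not shown. Neither was an equal change.

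**Figure D3:**
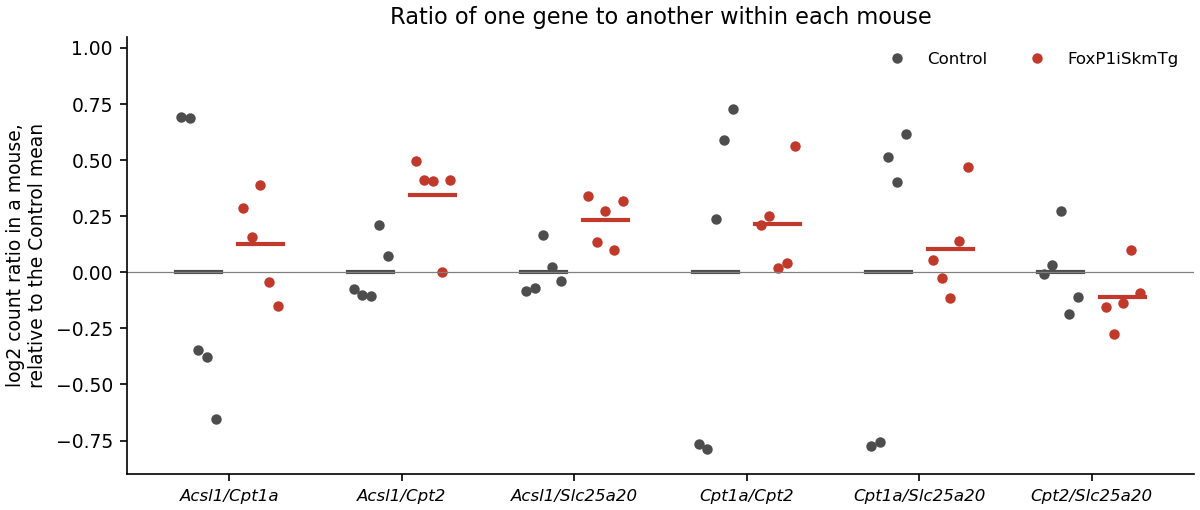
log2 count ratio of one gene to another in each mouse, relative to the Control mean of that ratio, for the 6 pairs of the 4 genes, with points for mice and lines for group means (n = 5 each). Ratios of Acsl1 to Cpt2 and to Slc25a20 sit mostly above the Control points, and the 3 pairs with Cpt1a are split by Control replicates 1 and 2.

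The neighbours of these genes in the pathway were taken from 9 lists of fatty acid activation, transport, oxidation and their control, which hold 99 genes beside the 4. Of these 40 were in the table and 39 were tested. Among them 13 rose, 7 fell and 19 did not pass, where 17.5% of all 3115 genes tested were called higher and 19.8% lower. The median log2 fold change was 0.28, against 0.13 over all genes tested. Of those, selected for a low p, 1563 had a positive and 1552 a negative log2 fold change, so 0.13 is not a typical change. Genes outside the table were not analysed here, among them the long-chain synthetases Acsl3, Acsl5 and Acsl6, carnitine acetyltransferase Crat and the carnitine transporter Slc22a5.

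Among the other acyl-CoA synthetases, Acsl1 and Acsl4 moved in opposite directions. Acsl4, which prefers arachidonic acid, was 1.30-fold lower, from 576.8 ± 59.5 to 442.1 ± 38.4 normalized counts (adjusted p = 0.0193, edgeR, but 0.0502 without Control replicate 1 and 0.0519 without Control replicate 3). Acss1, the mitochondrial acetyl-CoA synthetase, rose 1.81-fold, from 439 ± 59.1 to 796.7 ± 135.4 normalized counts (adjusted p = 0.00137). Its cytosolic counterpart Acss2 had a log2 fold change of -0.16 and did not pass (adjusted p = 0.213). Acot7, a thioesterase that hydrolyses acyl-CoA back to the free acid, was 1.51-fold lower (adjusted p = 0.00535). Neither Acot9, a mitochondrial thioesterase, with a log2 fold change of 0.22, nor Dbi, the acyl-CoA binding protein, at 0.45, passed, although Dbi did without FoxP1iSkmTg replicate 4 (adjusted p = 0.0324). Acot1 stood at 1.01 to 19.7 normalized counts and was too low to test.

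Of the genes that handle carnitine, Aldh9a1, a dehydrogenase of carnitine synthesis, rose 1.57-fold, from 92 ± 13.1 to 145.2 ± 22.1 normalized counts (adjusted p = 0.0141, edgeR). Tmlhe, which starts that synthesis, had a log2 fold change of 0.59 ± 0.24 (SE) and did not pass. The peroxisomal carnitine octanoyltransferase gene Crot gave -0.29 ± 0.10 (adjusted p = 0.0935, and 0.0388 without FoxP1iSkmTg replicate 5). Slc22a4, an organic cation and carnitine transporter, gave 0.85 ± 0.29 (adjusted p = 0.105, and 0.0232 without Control replicate 3, 0.0478 by DESeq2 and 0.0443 by the likelihood ratio test) at a mean of 36.6 normalized counts in Control mice.

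Malonyl-CoA is the inhibitor of the carnitine palmitoyltransferase 1 step. Acacb, the mitochondria-associated acetyl-CoA carboxylase that makes it there, rose 1.33-fold. The 5 FoxP1iSkmTg mice lay between 8689.1 and 11162.5 normalized counts and the Control mice between 7051.5 and 7764.5 (adjusted p = 0.00308, edgeR). Prkaa2, a catalytic subunit of AMP-activated protein kinase, which inhibits that carboxylase, was 1.35-fold lower, from 7387.4 ± 518.7 to 5461.9 ± 556.3 normalized counts (adjusted p = 0.0051). The kinase subunit genes Prkag2 and Prkag3 had log2 fold changes of -0.37 and -0.28 and did not pass. Acly, Fasn and Mcat, which make cytosolic acetyl-CoA and build fatty acids in the cytosol and the mitochondrion, had 0.30, 0.70 and 0.28 on this scale and did not pass either. Acly did pass without Control replicate 1 (adjusted p = 0.0329) and by DESeq2 (0.0448), and Fasn by DESeq2 (0.0262) and the likelihood ratio test (0.0305). FoxP1iSkmTg replicate 1 alone stood at 632.2 normalized counts of Fasn, against 313.3 to 368.2 in the other 4 of its group.

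Peroxisome proliferator-activated receptors, with their retinoid X partners and the coactivator encoded by Ppargc1a, are known to activate genes of this pathway. Ppargc1a was 1.45-fold lower, from 764.6 ± 59.1 to 525.3 ± 61.4 normalized counts (adjusted p = 0.00308, edgeR). The partner genes Rxra and Rxrg were 1.24-fold and 1.21-fold lower (adjusted p = 0.0293 and 0.014), whereas Rxrb had a log2 fold change of 0.30 that did not pass here but did without FoxP1iSkmTg replicate 4 (adjusted p = 0.0334), with TMM factors (0.0443), by DESeq2 (0.0366) and by the likelihood ratio test (0.0457). Med1 and Lpin1, further coactivators, had 0.18 and 0.23 and did not pass. Of the 5 listed target genes of these receptors in muscle, Acot1 was not tested, 3 rose and 1 fell. Of all 3115 genes tested 17.5% were called higher and 19.8% lower. Acadm, 1 of the 3 that rose, is also counted among the beta-oxidation genes described next. Fabp3, the fatty acid binding protein of heart and muscle, rose 1.99-fold, from 3643.3 ± 1184.2 to 7267.7 ± 1721.9 normalized counts, although the lowest FoxP1iSkmTg mouse, at 5473.6, lay below the highest Control mouse, at 5644.4. Plin2, a lipid droplet coat protein, rose 1.35-fold, and the fatty acid uptake receptor gene Cd36 was 1.29-fold lower (adjusted p = 0.0361). Both the Cd36 and the Rxra call were lost when single mice were left out. For Cd36 this held for each mouse but FoxP1iSkmTg replicates 3 and 4 and Control replicate 2, with an adjusted p of up to 0.0859, and TMM factors gave 0.0539. For Rxra it held for FoxP1iSkmTg replicates 1 and 3 and Control replicates 1, 2 and 4, with up to 0.0756.

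Inside the matrix, 9 of 20 beta-oxidation genes were in the table, 6 of them rose and the other 3 had positive log2 fold changes that did not pass. Of all 3115 genes tested 17.5% were called higher and 1563 had a positive log2 fold change. The list median was 0.39 on the log2 scale, against 0.13 over all genes tested. Acadm, the medium-chain acyl-CoA dehydrogenase, rose by a log2 fold change of 0.59, Acaa2, the thiolase, by 0.62 and Hadh, the short-chain hydroxyacyl-CoA dehydrogenase, by 0.50 (adjusted p = 0.00653, 0.0169 and 0.00308, edgeR). Hadha, a subunit of the trifunctional protein, rose 1.31-fold. Acadl and the isomerase gene Eci1 rose 1.31-fold and 1.28-fold, with overlap between single mice. Without FoxP1iSkmTg replicate 3 or any one of Control replicates 1 to 4 the adjusted p of Acadl was 0.0514 to 0.0662. Without any one of Control replicates 2 to 4 that of Eci1 was 0.0519 to 0.0548. In the uptake and droplet list the droplet coat gene Plin3 rose 1.55-fold and the acyltransferase gene Agpat3 1.29-fold. Abhd5, the activator of the lipase of the droplet, had a log2 fold change of -0.21 and did not pass (adjusted p = 0.0903).

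**Figure D4:**
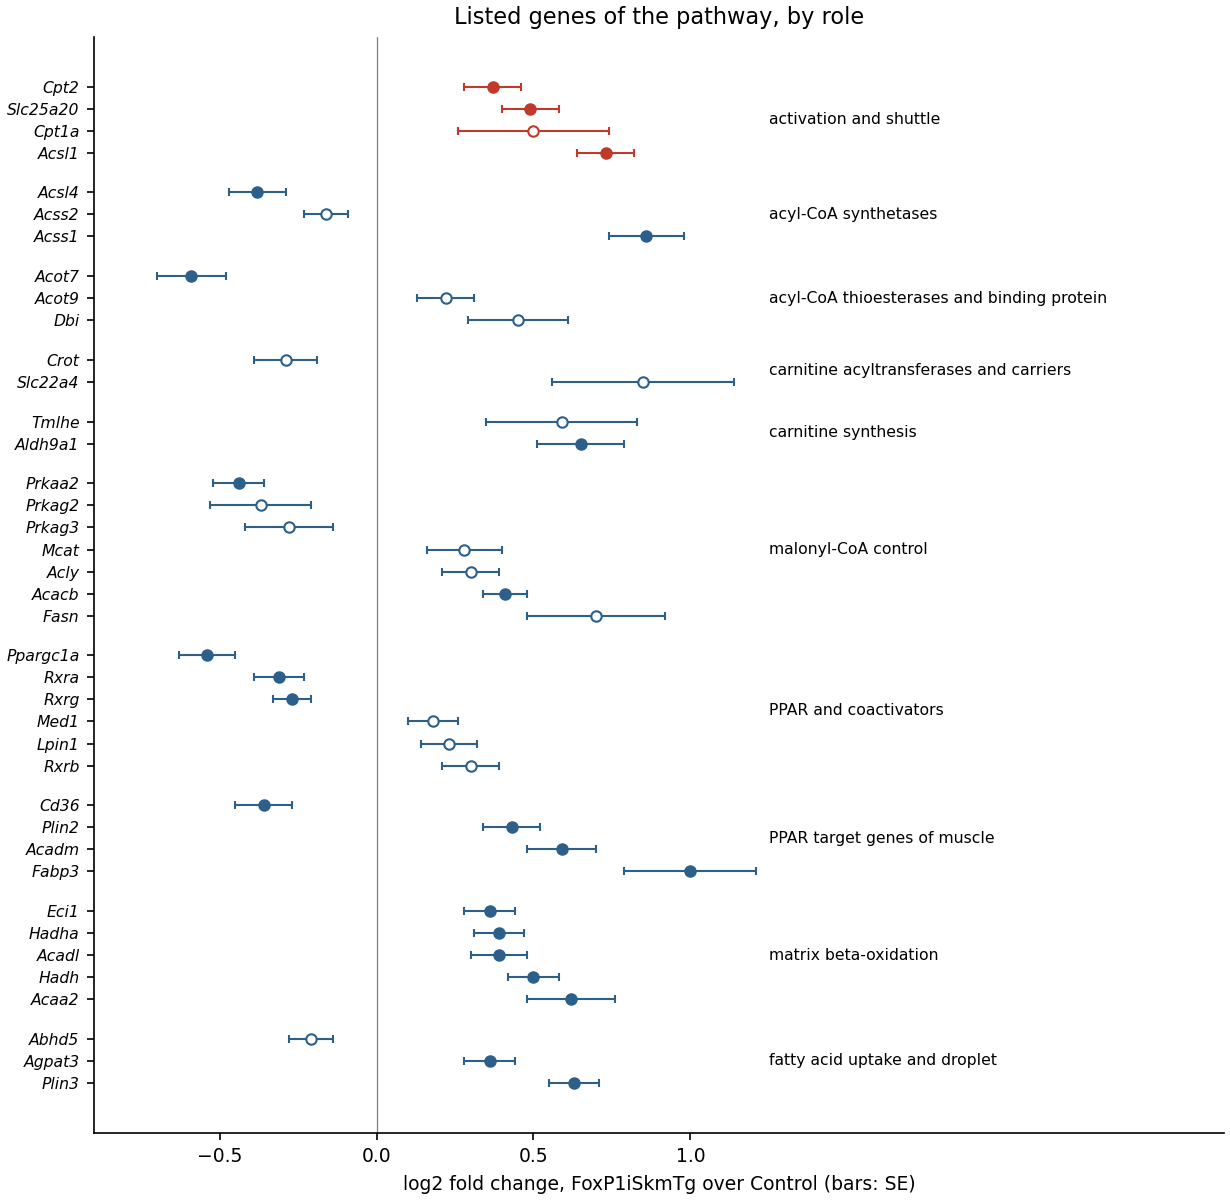
log2 fold change, FoxP1iSkmTg over Control, with SE (horizontal axis) from the edgeR fit for the 4 genes (red) and the named listed genes of the pathway (blue), grouped by role, with filled points for an adjusted p under 0.05 and open points for others. Acsl1 at 0.73, Slc25a20 at 0.49 and Cpt2 at 0.37 are filled, and Cpt1a at 0.50 is open with the widest bar of the 4.

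These are whole muscles, in which fewer cells of a type and less RNA per cell cannot be told apart. Of 14 skeletal muscle markers 7 were in the table at high levels, and Acta1, Mylpf, Tnni2 and Pvalb were 1.32-fold to 1.67-fold lower in FoxP1iSkmTg muscle. Of 69 markers of other cell types 6 were in the table. The adipocyte markers among them were Plin1, at 17.1 and 33.1 mean normalized counts in Control and FoxP1iSkmTg mice, and Car3, which muscle fibers also express and which was 2.60-fold lower. The sum of the pair ran from 55476.4 to 82002.4 normalized counts in Control and from 16598.7 to 38312.2 in FoxP1iSkmTg mice. Nearly all of that sum is Car3, whereas Plin1 had a log2 fold change of 0.97 that did not pass. The satellite cell markers Itga7, also known from muscle fibers, and Sdc4 summed to 1902.2 to 2228.2 and to 2769.2 to 3460.7 normalized counts. Most of that sum is Itga7, which was 1.61-fold higher, whereas Sdc4 did not pass (adjusted p = 0.171, edgeR) and its groups overlapped. Cd3e of lymphocytes summed to 5.02 to 21.1 and to 12.9 to 27.8, and S100a9 of neutrophils to 7.38 to 17.5 and to 1.03 to 5.04. The former did not pass (adjusted p = 0.212, edgeR), and S100a9 was too low to test. None of these 6 was at 0 in any mouse, and the part of such shifts in the change of the 4 genes was not tested.

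The profile of each gene over the 10 mice was compared with 2506 other tested genes, as the root mean square difference in log2 level after each gene was set to its own Control mean. Among the 4 genes Cpt2 and Slc25a20 were most alike (0.161), then Acsl1 and Slc25a20 (0.190) and Acsl1 and Cpt2 (0.287), while Cpt1a differed from the others by 0.436 to 0.502. The nearest gene to Slc25a20 was Hadh at 0.064, ahead of Rhot2, a GTPase of mitochondrial transport, and Wfdc1, both at 0.099. Hadh stood at 1994.8 to 2317.7 normalized counts in Control and 2599.1 to 3571.5 in FoxP1iSkmTg mice. Among those nearest to Acsl1 were Cyth2 (0.111) and Lancl1 (0.115), which were 1.59-fold and 1.70-fold higher. The difference between groups is part of this measure, so a like fold change of a near gene follows from the pick. Nearest to Cpt2 were Minpp1 (0.094) and the mitochondrial ribosomal protein genes Mrps35 (0.095) and Mrps2 (0.099).

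Cpt1a was closest to Noct (0.209), the gene of the rhythmically expressed protein nocturnin, to Hr (0.214), a nuclear receptor corepressor gene, and to Fgfr3 (0.268). Control replicates 1 and 2 were also the lowest mice for each of these. Noct stood at 449.7 and 527.4 normalized counts in them and at 779.8, 867.7 and 849.1 in Control replicates 3 to 5. Hr stood at 1465.6 and 2048.9 against 2576.6, 3342.9 and 3861.0, and Fgfr3 at 68.5 and 69.6 against 115.9, 149.9 and 115.4. In FoxP1iSkmTg replicates 1 to 5 Noct stood at 831.7, 940, 979.7, 1177.9 and 1179.0, and Hr at 3891.7, 3720.3, 3780.6, 4352.2 and 4294.9. Both were thus highest in replicates 4 and 5 of either group, and Cpt1a was highest in replicate 5 of either group. Fgfr3, at 159.1, 128.3, 111.3, 149 and 156.2 in FoxP1iSkmTg replicates 1 to 5, did not keep this order. The log2 fold changes between groups were 0.56 for Noct, 0.59 for Hr and 0.44 for Fgfr3, and none of the 3 passed (adjusted p = 0.0869, 0.116 and 0.296, edgeR). Hr did pass without Control replicate 5 (0.0371) and by DESeq2 (0.0425), and Noct by DESeq2 (0.0296) and the likelihood ratio test (0.0324). These genes were picked for their likeness to Cpt1a in these mice, so the shared split is a description. The sample codes in the labels are lowest and consecutive for Control replicates 1 and 2. Next come those of FoxP1iSkmTg replicates 1 and 2, and some other mice also have consecutive codes. Within each group the codes rise with the replicate number. What these codes stand for is not stated. Their part in the split, or in the order of replicates for Noct and Hr, was not tested.

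**Figure D5:**
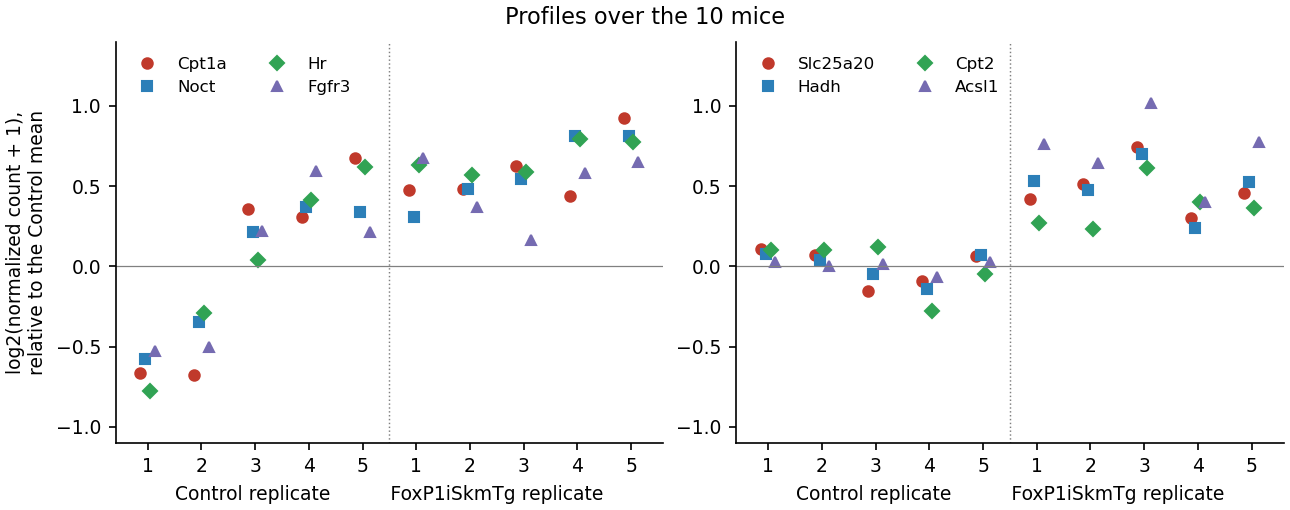
log2(normalized count + 1) relative to the Control mean of each gene in the 10 mice, with Cpt1a and its 3 nearest genes on the left and Slc25a20, its nearest gene Hadh, Cpt2 and Acsl1 on the right. On the left Control replicates 1 and 2 lie below the Control mean for all 4 genes. On the right all FoxP1iSkmTg mice lie above 0. The Control mice there lie on both sides of 0, lowest for Cpt2 in replicate 4 at -0.28.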

How the data were processed

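Poly-A RNA of the tibialis anterior of 10 mice was sequenced. The authors deposited whole-number read counts per gene, a normalized signal (each count over the DESeq2 size factor of its library), FPKM values and, for their own comparison, p-values, adjusted p-values and log2 fold changes. Among tools, the submitters' processing notes give HISAT2 2.0.5 and, for testing, DESeq2 1.20.0, on mm10, whereas the study's methods name STAR and HTSeq, so the aligner is not settled. The authors' p-values were used only to find how the table was selected (largest p 0.04998) and over how many genes they adjusted (15846). Their fold changes were not used. Counts over the 3480 listed genes came to 6620970 to 8737660 per mouse. The totals implied by FPKM (15510420 to 21989419) follow the size factors, so they are no separate measure of depth. Their mean scale set the library sizes of the main fit, and the TMM alternative used them as library sizes.

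Counts were tested in R 4.3.3 with edgeR 4.0.16 (glmQLFit, glmQLFTest, two-sided) with the authors' size factors, which rest on all genes. Factors by TMM assume that most of the listed genes are unchanged, and served as an alternative. filterByExpr with a minimum count of 10 left 3115 genes. Benjamini-Hochberg adjustment was over 15846 genes, with unlisted genes taken as having larger p-values. The fit was tested on simulated data. Nothing says whether mice shared litters or cages, and no libraries were near-identical.

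Named are the 4 genes, Foxp1, every listed gene of the synthetase, thioesterase, carnitine, malonyl-CoA and PPAR lists, up to 6 listed genes of smallest p in the target gene, beta-oxidation and droplet lists, and the 3 genes with the profile nearest to each of the 4, among genes with a mean of at least 100 normalized counts. Marker genes named for other cell types and Gm45244 fall outside this rule. A gene that meets the rule is not reported here. The genes and lists were chosen with earlier results of these data known. Profiles used a pseudocount of 1. Motifs were matched as exact letters. Alternatives were other size factors, DESeq2 1.42.0, the likelihood ratio test, other filters, another adjustment, a replicate block and leaving out each mouse.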

Additional observations from a re-analysis of the deposited data

Results flagged for a closer look

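Over the named genes, 104 groups of 5 mice were searched for a mouse far from the rest of its group, and 7 were found. Chance alone flags about 1 in 20 groups, or 5.2 of these. Acsl1 in Control replicate 4 was lowest at 4338.6 normalized counts, with the next at 4560.2 in a group of very small spread. Acacb in Control replicate 5 was lowest at 7051.5 (next 7597.6), and Eci1 in the same mouse was highest at 1870.8 (next 1578.4). Fasn and Acly were both highest in FoxP1iSkmTg replicate 1, at 632.2 and 406.6 normalized counts, with the next mice at 368.2 and 367.4. Slc22a4 was highest in Control replicate 3 at 64.3 (next 33.1), and Mrps35 was lowest in Control replicate 4 at 262.6 (next 340.4).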

How the results depend on the processing

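Acsl1 and Slc25a20 stayed higher with an adjusted p under 0.05 in all 18 alternatives, at log2 fold changes of 0.65 to 0.81 and 0.42 to 0.54. Cpt2 stayed positive at 0.31 to 0.41 and passed in 15 of 18, with an adjusted p between 0.00428 and 0.0681. Leaving out 1 mouse gave it 0.31 to 0.41, and it was lost in 3 of these 10 fits. Cpt1a ranged from 0.35 to 0.69 and passed in none, with an adjusted p of 0.0629 to 0.721, and over all 4 genes 2 or 3 passed. With the p adjusted over the tested listed genes alone, which were chosen for a low p, 2979 genes passed in place of 1161, 1497 higher and 1482 lower, and of the pathway genes 37 in place of 20, 25 higher and 12 lower. DESeq2 called 1624 genes. With 1 mouse left out, 835 to 1230 genes and 4 to 7 lower pathway genes passed, the lowest of the latter without Control replicate 1. TMM factors moved the median of all genes by 0.03 on the log2 scale and called 56.3% of passing genes higher in place of 46.9%.

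Mice of the 2 groups that share a replicate number showed little likeness (correlation -0.015 to 0.087). For 1 of the 5 numbers the best match was the mouse sharing it. Such low values over 5 pairs cannot exclude that these mice were handled together, which was not tested. Blocking by this number lowered the SE of Foxp1 from 0.44 to 0.26 and that of Noct from 0.18 to 0.10. Among the 4 genes the block lowered that of Cpt1a from 0.24 to 0.19 and that of Acsl1 from 0.09 to 0.08. It left that of Cpt2 and Slc25a20 at 0.09. The SE of Slc22a4 fell from 0.29 to 0.19 and that of Hr from 0.21 to 0.16, while that of Rhot2 rose from 0.10 to 0.11. With the replicate number as a block Acsl1 gave 0.72, Slc25a20 0.49, Cpt2 0.38 and Cpt1a 0.57 (adjusted p = 0.00192, 0.0195, 0.0487 and 0.132, edgeR), and 907 genes passed. Of 46 other genes named or compared, none changed sign in a setting. The block ended 5 calls (Rxrg, Cd36, Minpp1, Mrps2 and Rhot2, adjusted p = 0.0506 to 0.0803) and added 3 (Slc22a4, Noct and Hr). DESeq2 added 6 (those 3, Acly, Fasn and Rxrb), the likelihood ratio test 4 (Slc22a4, Fasn, Rxrb and Noct) and adjustment over listed genes 17, and TMM ended that of Cd36 and added Rxrb.

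No pair ratio passed when 1 mouse was left out or by medians, and the block, whose smallest exact p is 0.0625, could not pass. The Acsl1 to Cpt1a difference ran from -0.04 to 0.30 and that of Cpt1a to Slc25a20 from -0.09 to 0.26 when 1 mouse was left out, both turning sign. By group medians Cpt1a to Cpt2 came to -0.03 and Cpt1a to Slc25a20 to -0.35. With principal transcript lengths Acsl1 stood at 66.0 and 109.7 FPKM and Slc25a20 at 34.5 and 48.4 in Control and FoxP1iSkmTg mice, since those lengths are shorter. Deposited counts give no strand and no isoform.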
